A study of Mus musculus with 31 samples.

Results

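The comparison described here is that of the diets under butyrate: colon scrapings of mice on a high-fat diet (butyrate HFD, 4 arrays) against those of mice on a low-fat diet (butyrate LFD, 4 arrays), both groups infused with butyrate. These are 8 of the 31 arrays of the study, taken by their titles, and all probe sets with 1 gene symbol were used. The mice were male C57Bl/6J, 13 weeks old, and ate semi-synthetic diets based on palm oil, with 45% of energy from fat in HFD and 10% in LFD. After 2 weeks on the diet they were put under light isoflurane and nitrous oxide on 6 days running and given 80 µL of isotonic saline with 100 mM sodium butyrate at pH 6.5, through a tip placed 3 cm into the rectum. The colon was taken 4 h after the last infusion, freed of adhering fat, opened, rinsed and scraped. Every mouse of both groups thus carried butyrate, the infusion and the sedation, and only the diet differed. The other 23 arrays came from mice infused with saline, acetate or propionate on the same diets (saline 8, acetate 7, propionate 8) and serve below for comparison. The labels name 6 mice per group and number the samples within a group, without saying which mouse each sample came from, so p-values measure the spread between samples.

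Butyrate is a short-chain fatty acid that gut bacteria make from fibre. Colonocytes take it up through the transporters encoded by Slc16a1 and Slc5a8 and burn it in their mitochondria, it activates the receptor encoded by Ffar2, and it inhibits histone deacetylases. The colonic lining also makes its own lipids. Sterol-regulated transcription factors drive the genes of cholesterol and fatty acid synthesis when cells are short of sterol or unsaturated fat. In liver, polyunsaturated fat in the diet is known to lower the fatty acid part of that programme.

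All levels below are log2 intensities, and a difference is always butyrate HFD minus butyrate LFD, given with the standard error of the limma fit over all 31 arrays. The fit pools the spread over the 8 groups, so its errors are too small for genes that vary more in these 2 groups than elsewhere. Across the series the array medians lay between 5.14 and 5.19, and the 8 arrays correlated with others of their group with an r of 0.989 to 0.994 over all probe sets. No depth applies to arrays, and their number limits the precision. The scrapings carried their label: 11 tested genes that all gut epithelium expresses (Epcam, Krt8, Cdh1, Vil1 among them) averaged 11.07 to 11.15 on the butyrate HFD arrays and 11.13 to 11.23 on the butyrate LFD arrays. Krt8, a keratin of simple epithelia, stood at 12.91 to 13.01 in butyrate HFD and at 12.89 to 13.00 in butyrate LFD.

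Certain arrays stood apart before any comparison. Adipoq, Hoxb13, Krt8, Cd74 and Muc2 are list members named after their values were seen. Array 2 of butyrate LFD lay at -26.78 on the first principal component of the 8 arrays, which held 33.9% of the variance, while the others lay between -6.76 and 12.55. That array had the highest mean of 11 adipocyte markers, 7.28, against 5.72 to 6.48 on the butyrate HFD arrays and 5.63 to 6.01 on the other butyrate LFD arrays. Its level of Adipoq, the adipokine that defines fat cells, was 5.48, against 3.26 to 4.41 on the butyrate HFD arrays and 3.57 to 4.01 on the other butyrate LFD arrays. It also had the lowest mean of 14 genes of the distal colon, 7.14, against 7.75 to 8.27 in butyrate HFD and 7.84 to 8.23 on the other butyrate LFD arrays. Hoxb13, a homeobox gene of the hindgut's lower end, stood at 7.43 there and between 9.31 and 9.98 on the other 7 arrays. The mean of the proximal colon genes was the lowest on that array as well, at 8.56. It was 8.73 to 9.01 in butyrate HFD and 8.92 to 9.26 on the other butyrate LFD arrays. Over the whole adipocyte list the difference between the diets had a median of -0.26, with 10 of 11 members below 0, but of 0.09 with 8 of 11 above 0 without that array. Array 1 of butyrate HFD had the highest means of the 8 for MHC class II genes (7.12), macrophage and dendritic cell markers (6.04), B and plasma cell markers (6.45) and fibroblast genes (6.54). For many of the lists and single genes described, values are also given without either or both of these arrays, a choice made after their values were seen.

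No gene passed an adjusted p of 0.05 in limma between butyrate HFD and butyrate LFD. Of 12795 genes tested, 0 were called (0%), with a smallest adjusted p of 0.9996. At an unadjusted p under 0.05 stood 469 genes, fewer than the 639.75 that chance gives over this many tests. Of these, 365 were higher in butyrate HFD (2.85% of the genes tested) and 104 were lower (0.813%). That lean to higher values depended on the scaling. After a second quantile normalization, of all probe sets with 1 gene symbol, it was 212 higher and 213 lower. The median difference of all genes was then -0.001 in place of 0.021. The arrays of the groups did not overlap for 217 genes that were higher in butyrate HFD (1.7%) and for 98 that were lower (0.766%). The median standard error of a difference was 0.10, and 2 genes differed by more than 2-fold. These were Retnlb, described below, and Slc37a2, a sugar phosphate exchanger named here after its value was seen. All counts of list members that follow are read against the shares just given, and a gene described as higher or lower did not pass the adjusted test.

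**Figure D1:**
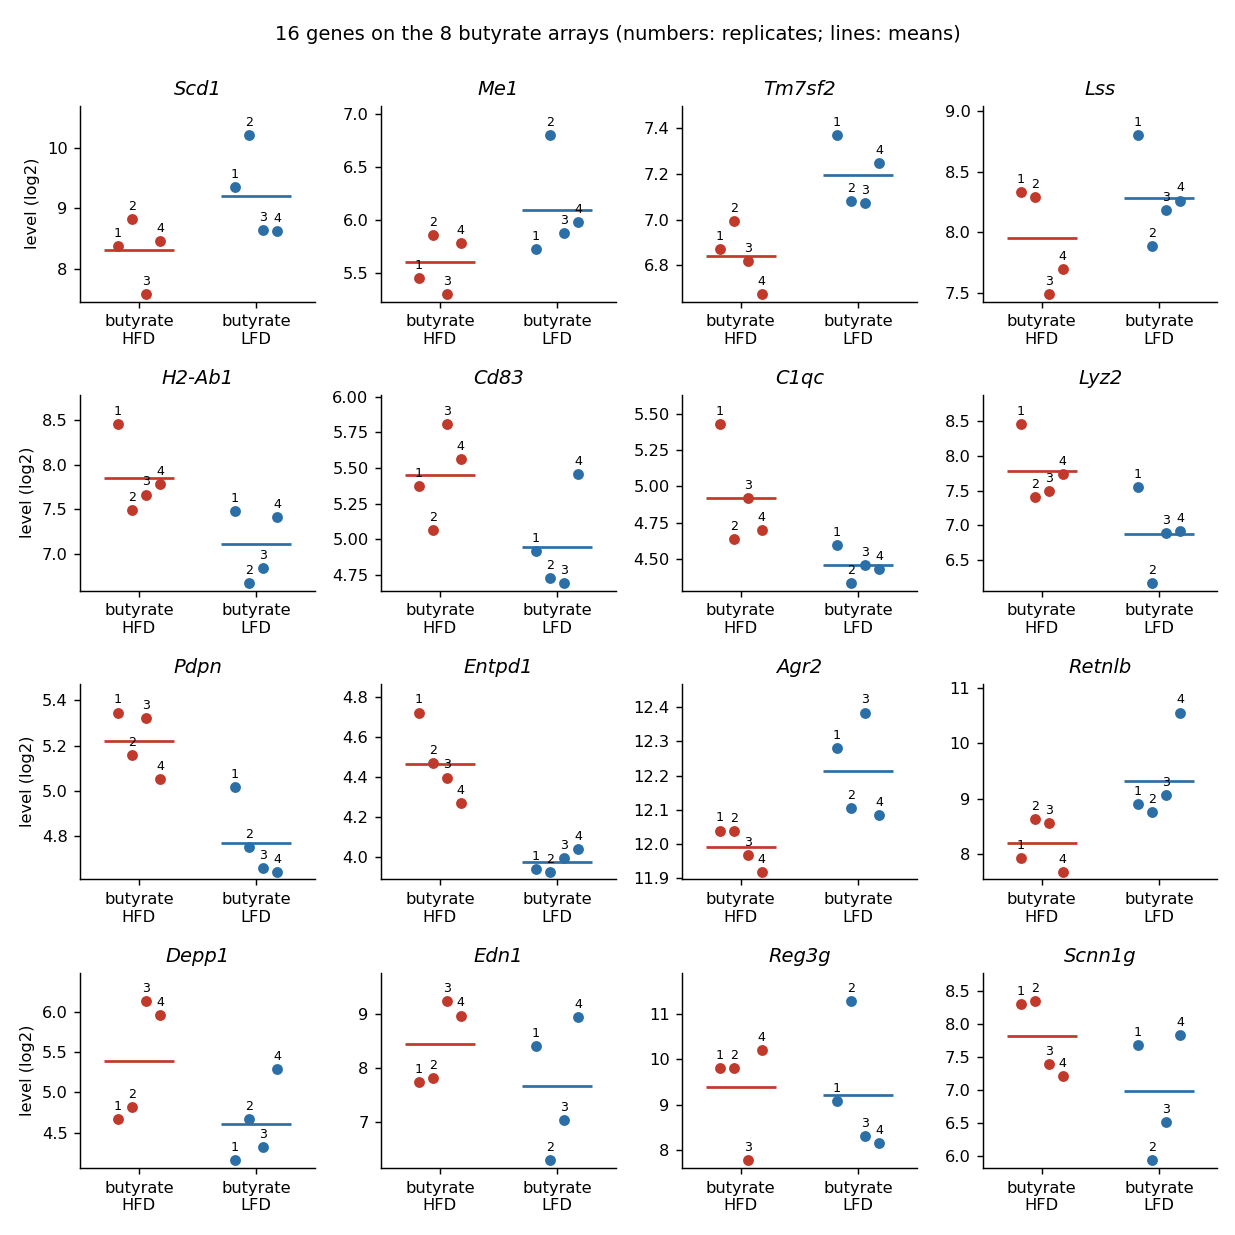
Log2 level of 16 genes on each butyrate array, butyrate HFD (4 arrays, red) left of butyrate LFD (4 arrays, blue). The points carry the replicate number, the lines are group means, and each panel has its own scale. Scd1 lay between 7.59 and 8.83 in butyrate HFD and between 8.63 and 10.22 in butyrate LFD, so the groups overlapped, while those of Tm7sf2, H2-Ab1, C1qc, Pdpn, Entpd1, Agr2 and Retnlb did not.

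Fatty acid synthesis and desaturation genes leaned lower in butyrate HFD. Of 20 tested members 14 had a difference below 0 and 6 above, with a median of -0.08 against 0.02 over all genes, and 2 stood at an unadjusted p under 0.05. Scd1 (probe set 10467979), whose enzyme puts the first double bond into saturated fatty acids, had levels of 8.38, 8.83, 7.59 and 8.46 in butyrate HFD and 9.36, 10.22, 8.64 and 8.63 in butyrate LFD. All 4 butyrate HFD arrays lay below the butyrate LFD mean of 9.21 ± 0.76 (SD, n = 4), but array 2 of butyrate HFD lay above the lowest 2 of butyrate LFD. The difference was -0.90 ± 0.30, a linear change of -46.3%, with an adjusted p of 0.9996 in limma and a 95% interval of -1.52 to -0.28. Without array 2 of butyrate LFD, the highest, it was -0.56, and without array 4 of butyrate LFD it was -1.09. Me1, the malic enzyme that supplies reducing power for lipid synthesis, had 5.45, 5.86, 5.31 and 5.79 in butyrate HFD and 5.73, 6.80, 5.88 and 5.99 in butyrate LFD. It too was highest on array 2 of butyrate LFD, whose adipocyte markers were the highest of the 8 arrays, and its difference of -0.50 ± 0.22 was -0.21 without that array and array 1 of butyrate HFD. The part of fat cell RNA in these differences was not tested, and in such scrapings fewer cells of a type and less RNA per cell cannot be told apart.

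Other desaturases and synthetic enzymes differed less. Scd2, the second stearoyl-CoA desaturase, had 11.78, 11.76, 10.98 and 10.92 in butyrate HFD and 12.13, 10.93, 11.54 and 11.22 in butyrate LFD. The ranges lay over each other, with a difference of -0.09 ± 0.27 and a 95% interval of -0.64 to 0.45. For Scd2 it was 0.13 without array 1 of butyrate LFD and -0.41 without array 1 of butyrate HFD and array 2 of butyrate LFD. Fads1, the delta-5 desaturase of polyunsaturated fatty acids, differed by -0.29 ± 0.23. Fads2, another desaturase, went the other way, with a difference of 0.17. It was 0.32 for Fads2 without array 1 of butyrate LFD and -0.15 without array 1 of butyrate HFD and array 2 of butyrate LFD. Fasn, the fatty acid synthase, differed by -0.17 ± 0.15, and Acaca, the acetyl-CoA carboxylase that makes its substrate, by -0.07 ± 0.10. Srebf1, which encodes the transcription factor of fatty acid synthesis, averaged 7.91 ± 0.23 in butyrate HFD and 7.91 ± 0.25 in butyrate LFD (SD, n = 4 each). Its 95% interval ran from -0.30 to 0.30.

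The genes of cholesterol synthesis and uptake leaned lower together. Of 20 tested members 17 had a difference below 0, with a median of -0.20, and 2 stood at an unadjusted p under 0.05 (Tm7sf2 and Stard4). Tm7sf2, a sterol reductase late in the pathway (probe set 10465342), had 6.87, 6.99, 6.82 and 6.68 in butyrate HFD and 7.37, 7.08, 7.07 and 7.25 in butyrate LFD. Every butyrate HFD array lay below every butyrate LFD array, with a difference of -0.35 ± 0.15. Lss, the cyclase that makes lanosterol, had 8.33, 8.29, 7.49 and 7.70 in butyrate HFD and 8.81, 7.89, 8.19 and 8.26 in butyrate LFD. Its groups overlapped, since arrays 1 and 2 of butyrate HFD stood above 3 of the butyrate LFD arrays, and the difference was -0.33 ± 0.26. Sqle, the squalene epoxidase, differed by -0.26 ± 0.25, Cyp51, the lanosterol demethylase, by -0.31 ± 0.24, Idi1, the isopentenyl diphosphate isomerase, by -0.22 ± 0.28, and Hmgcs1, the synthase that opens the pathway, by -0.21 ± 0.24.

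The mean of the sterol list was 8.61, 8.64, 8.19 and 8.31 in butyrate HFD and 9.002, 8.27, 8.52 and 8.64 in butyrate LFD. Arrays 3 and 4 were the lowest of butyrate HFD, and array 1 of butyrate LFD was the highest of the 8. The lowest of butyrate LFD was array 2, the array with the highest adipocyte and the lowest distal colon markers. Without it the median was -0.30, with 19 of 20 members below 0. Without it and array 1 of butyrate HFD the median was -0.34, with 20 of 20 below 0 and 4 at an unadjusted p under 0.05, against 109 of all genes lower at that p. Without both, Lss differed by -0.59, Cyp51 by -0.57, Sqle by -0.53, Idi1 by -0.53 and Hmgcs1 by -0.49. Without array 1 of butyrate LFD, the highest, these 5 lay between -0.16 (Lss) and -0.02 (Hmgcs1) and the median was -0.04, so its size depended on which butyrate LFD array was left out.

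As background, the sterol-regulated factors bind a short promoter element, commonly near a CCAAT box bound by the factor NF-Y. In 32851 promoter windows of mouse genes from RefSeq (GRCm38.p6, 250 bases before to 50 after the start), the letters CCAAT were found on either strand in 37.4%. Of the sterol list 16 tested genes had windows, 19 in all, and 16 windows held CCAAT (84.2%), at least 1 for each of the 16 genes. The letters TCACNCCAC, a form of the sterol element, were in 1.24% of all windows and in 1 of these 19, that of Hmgcs1. The windows of Hmgcs1, Cyp51 and Tm7sf2 are shown because these genes open the pathway, stand in its middle and gave its clearest separation between the diets. Capitals mark CCAAT, or ATTGG where it lies on the other strand, and the sterol element, which in Hmgcs1 begins at position -137 from the start. A match is a description of these letters, not a bound site.
Hmgcs1 (chr13:119690101-119690400, + strand): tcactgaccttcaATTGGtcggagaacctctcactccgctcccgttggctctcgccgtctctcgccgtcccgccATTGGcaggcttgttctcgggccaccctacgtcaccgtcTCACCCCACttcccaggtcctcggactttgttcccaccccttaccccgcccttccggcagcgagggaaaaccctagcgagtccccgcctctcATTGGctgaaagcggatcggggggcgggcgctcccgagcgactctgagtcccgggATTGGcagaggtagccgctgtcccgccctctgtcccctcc
Cyp51 (chr5:4104648-4104947, - strand): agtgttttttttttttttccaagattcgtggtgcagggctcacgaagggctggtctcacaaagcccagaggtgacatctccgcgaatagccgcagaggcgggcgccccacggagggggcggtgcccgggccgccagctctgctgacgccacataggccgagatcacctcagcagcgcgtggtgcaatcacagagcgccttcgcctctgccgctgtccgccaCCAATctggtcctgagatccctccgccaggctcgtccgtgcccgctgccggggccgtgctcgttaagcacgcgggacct
Tm7sf2 (chr19:6067801-6068100, - strand): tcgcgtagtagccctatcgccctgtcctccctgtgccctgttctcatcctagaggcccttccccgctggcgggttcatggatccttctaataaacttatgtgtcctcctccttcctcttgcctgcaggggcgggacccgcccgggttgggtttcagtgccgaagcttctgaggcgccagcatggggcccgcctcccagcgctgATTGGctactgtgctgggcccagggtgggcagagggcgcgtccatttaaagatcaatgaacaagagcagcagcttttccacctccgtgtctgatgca

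Chaperone genes varied along with the sterol genes on some arrays. Of 14 heat shock genes 12 had a difference below 0, with a median of -0.20 and 0 at an unadjusted p under 0.05. Their mean was 9.17, 9.20, 8.69 and 8.71 in butyrate HFD and 9.17, 9.15, 9.56 and 8.57 in butyrate LFD. Arrays 3 and 4 of butyrate HFD were again lower than arrays 1 and 2, but the lowest of the 8 was array 4 of butyrate LFD. Hsp90aa1, the inducible HSP90, differed by -0.28 ± 0.30, with -0.27 and -0.34 on its other probe sets. Hspa5, the chaperone of the endoplasmic reticulum, differed by -0.12 ± 0.21, and the unfolded protein response list had a median of -0.06 with 15 of 19 members below 0. Without array 3 of butyrate LFD, the highest, the heat shock median was -0.03, and without array 4 of butyrate LFD, the lowest, it was -0.34.

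Genes that carry sterol out of cells leaned higher. Of 14 targets of the liver X receptors 11 had a difference above 0, with a median of 0.13, and 2 stood at an unadjusted p under 0.05. Apoe, the apolipoprotein of sterol efflux that macrophages also make in quantity, had 8.70, 7.65, 8.04 and 8.02 in butyrate HFD and 7.66, 7.55, 7.64 and 7.24 in butyrate LFD. Only array 2 of butyrate HFD fell within the range of butyrate LFD, and the difference was 0.58 ± 0.17. Abcg1, a sterol exporter, had 7.14, 6.78, 6.79 and 6.81 in butyrate HFD and 6.87, 5.98, 6.18 and 6.50 in butyrate LFD, a difference of 0.50 ± 0.15. Its highest array was array 1 of butyrate HFD, which also led the macrophage markers. Without that array Apoe differed by 0.38, and without it and array 2 of butyrate LFD Abcg1 differed by 0.27. Without that array and array 2 of butyrate LFD the list's median was 0.24. Of 15 PPARα targets 12 had a difference above 0, with a median of 0.15 and 0 at an unadjusted p under 0.05. That median was 0.02 without array 1 of butyrate LFD and 0.19 without array 1 of butyrate HFD and array 2 of butyrate LFD. Pdk4, the kinase that shuts off glucose oxidation, had 6.69, 8.03, 8.07 and 7.91 in butyrate HFD and 6.40, 7.44, 7.30 and 7.55 in butyrate LFD, so array 1 was the lowest of each group, and the difference was 0.50 ± 0.39. It was 0.24 for Pdk4 without array 1 of butyrate LFD and 0.92 without array 1 of butyrate HFD and array 2 of butyrate LFD. Mitochondrial fatty acid oxidation had 11 of 19 members above 0 and a median of 0.02. Without array 1 of butyrate HFD and array 2 of butyrate LFD 17 of 19 were above 0, with a median of 0.12, and without array 1 of butyrate LFD the median was -0.05. Cpt1a, its entry enzyme, differed by 0.04 ± 0.10, and by 0.15 without those first 2 arrays.

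Panel genes of lipid handling and of other functions spread widely within each diet. Lpcat4, an acyltransferase that remodels phospholipids, had 8.37, 8.37, 7.80 and 7.88 in butyrate HFD and 8.79, 8.77, 8.25 and 8.57 in butyrate LFD, with overlap and a difference of -0.49 ± 0.26. Mfsd2a, a lysophospholipid transporter, had 6.28, 6.24, 5.08 and 5.18 in butyrate HFD and 6.54, 6.18, 6.12 and 5.74 in butyrate LFD. Its arrays 3 and 4 of butyrate HFD lay below all others, and the difference was -0.45 ± 0.33. For Mfsd2a it was -0.24 without array 3 of butyrate HFD and -0.64 without array 1 of butyrate HFD. Depp1, a FOXO-regulated gene, had 4.66, 4.82, 6.13 and 5.96 in butyrate HFD and 4.15, 4.67, 4.32 and 5.29 in butyrate LFD, and here the same arrays lay above all others. Its difference was 0.78 ± 0.43. Edn1, the peptide endothelin, had 7.75, 7.82, 9.24 and 8.98 in butyrate HFD and 8.41, 6.29, 7.03 and 8.95 in butyrate LFD, a difference of 0.78 ± 0.45 with overlap that was 0.32 without array 2 of butyrate LFD. Fabp6, an ileal bile acid carrier, differed by -0.31 ± 0.43, and by 0.11 without array 3 of butyrate LFD.

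**Figure D2:**
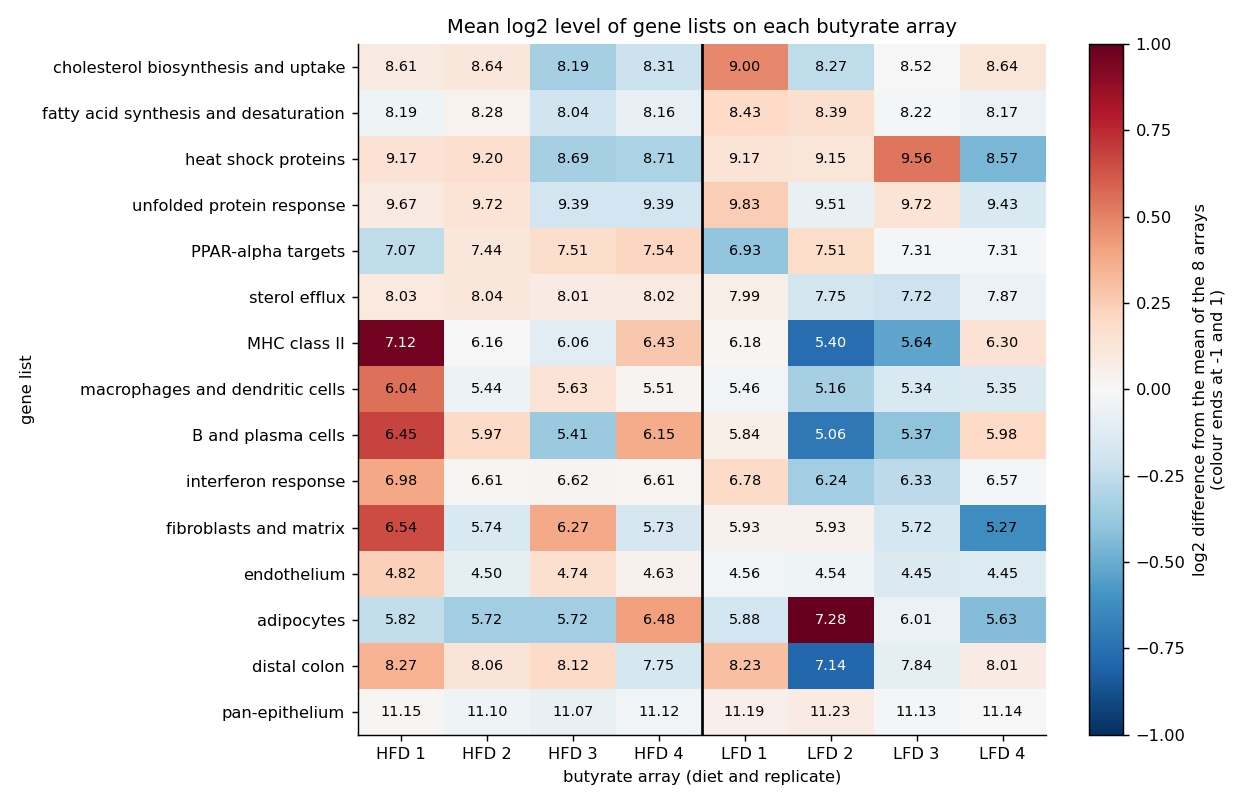
Mean log2 level of 15 gene lists (rows) on each butyrate array (columns, butyrate HFD left of the black line and butyrate LFD right of it), with the value printed and the colour giving the difference from the mean of the 8 arrays. Array 1 of butyrate HFD stands highest for MHC class II (7.12) and array 2 of butyrate LFD for adipocyte markers (7.28), while the epithelial list varies between 11.07 and 11.23.

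Antigen presentation, immune and stromal transcripts leaned higher. All 9 tested MHC class II genes were higher in butyrate HFD, with a median difference of 0.56 and 4 at an unadjusted p under 0.05. H2-Ab1, a chain of the I-A molecule (probe set 10444291), had 8.46, 7.50, 7.67 and 7.79 in butyrate HFD and 7.49, 6.68, 6.84 and 7.42 in butyrate LFD. The groups did not overlap, though array 2 of butyrate HFD and array 1 of butyrate LFD nearly met, and the difference was 0.75 ± 0.25. H2-Aa, its partner chain, differed by 0.87 ± 0.33, H2-Eb1 by 0.76 ± 0.27 and H2-DMa, which loads peptides, by 0.49 ± 0.19. Cd74, the invariant chain, had 9.25, 8.05, 8.37 and 8.42 in butyrate HFD and 8.47, 7.03, 7.60 and 8.12 in butyrate LFD, where the groups overlapped. The highest of the 8 arrays was array 1 of butyrate HFD and the lowest was array 2 of butyrate LFD for H2-Ab1, H2-Aa, H2-Eb1 and Cd74 alike.

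The size of these differences depended on the arrays kept, and leaving out the arrays at either end had to make it smaller. The mean of the MHC class II list was 7.12, 6.16, 6.06 and 6.43 in butyrate HFD and 6.18, 5.40, 5.64 and 6.30 in butyrate LFD. Its median difference was 0.82 without array 4 of butyrate LFD. It was 0.30 without array 1 of butyrate HFD, 0.46 without array 2 of butyrate LFD and 0.22 without both. Without both, 6 of 9 members were above 0 and 0 stood at an unadjusted p under 0.05, and H2-Ab1 differed by 0.40, H2-Aa by 0.39, H2-Eb1 by 0.32 and H2-DMa by 0.31. A second quantile normalization left the list's median at 0.52 with 9 of 9 above 0.

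The macrophage list and the B and plasma cell list had the same arrays at their ends, but other cell types did not. Fibroblast genes were highest on array 1 of butyrate HFD but lowest on array 4 of butyrate LFD (5.27). T and NK cell markers were highest on array 4 of butyrate HFD (5.17) and lowest on array 1 of butyrate LFD (4.78). All 12 macrophage and dendritic cell markers were higher in butyrate HFD, with a median of 0.31 and 6 at an unadjusted p under 0.05. Lyz2, the lysozyme of myeloid cells, had 8.47, 7.41, 7.49 and 7.74 in butyrate HFD and 7.55, 6.17, 6.88 and 6.92 in butyrate LFD, a difference of 0.90 ± 0.37. C1qc, a chain of complement C1q made by tissue macrophages, had 5.43, 4.64, 4.92 and 4.70 in butyrate HFD and 4.60, 4.34, 4.46 and 4.43 in butyrate LFD. Its groups did not overlap, but the butyrate LFD values lay near the log2 level of 4.32 that the filter on dim genes asked for, and the difference was 0.47 ± 0.17. Csf1r, the receptor that macrophages depend on, differed by 0.44 ± 0.15, and C1qb by 0.53 ± 0.19. Cd83, a marker of mature dendritic cells, had 5.37, 5.07, 5.81 and 5.57 in butyrate HFD and 4.92, 4.73, 4.70 and 5.46 in butyrate LFD. It did not follow the other markers from array to array: its highest was array 3, and array 4 of butyrate LFD overlapped butyrate HFD. Its difference was 0.51 ± 0.20. The macrophage list's mean was 6.04, 5.44, 5.63 and 5.51 in butyrate HFD and 5.46, 5.16, 5.34 and 5.35 in butyrate LFD. Without array 1 of butyrate HFD and array 2 of butyrate LFD its median was 0.15, with 9 of 12 members above 0 and 0 at an unadjusted p under 0.05. Without those arrays Lyz2 differed by 0.43, C1qc by 0.26, Csf1r by 0.23 and C1qb by 0.23.

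B and plasma cell markers had a median of 0.51, with 12 of 15 above 0 and 4 at an unadjusted p under 0.05. Ighm, the heavy chain of IgM, had 6.73, 6.36, 6.27 and 6.99 in butyrate HFD and 5.68, 5.67, 6.51 and 6.24 in butyrate LFD, a difference of 0.56 ± 0.22, but its other probe set gave 0.15. Jchain, which joins secreted IgA, differed by 0.51 ± 0.24, and Igkc, the kappa light chain, by 0.78 ± 0.37. The list's median was 0.06 without array 1 of butyrate HFD and array 2 of butyrate LFD. T and NK cell markers had a median of 0.10, with 9 of 13 above 0, and of 0.20 without both arrays.

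Fibroblast and matrix genes had a median of 0.36, with 13 of 14 above 0 and 2 at an unadjusted p under 0.05. Postn, the matrix protein periostin, had 7.07, 6.91, 6.95 and 6.47 in butyrate HFD and 6.24, 6.84, 6.50 and 5.73 in butyrate LFD. The lowest of each group was array 4, the groups overlapped, and the difference was 0.52 ± 0.23. Col6a1, a chain of collagen VI, differed by 0.42 ± 0.16. Endothelial genes had a median of 0.20, with 12 of 13 above 0 and 3 at an unadjusted p under 0.05, though their mean level of 4.45 to 4.82 lay near the filter. Pecam1, the endothelial adhesion molecule, differed by 0.30 ± 0.13 and Eng, a TGF-β co-receptor, by 0.38 ± 0.15. Without array 1 of butyrate HFD and array 2 of butyrate LFD the fibroblast median was 0.21, the endothelial median 0.15 and the Pecam1 difference 0.13. Without array 4 of butyrate LFD Postn differed by 0.32 and Col6a1 by 0.27, and without array 2 of butyrate LFD by 0.69 and 0.53. Smooth muscle genes had a median of 0.17, with 0 of 11 at an unadjusted p under 0.05, and the epithelial list -0.06. The part of these cells' RNA in single genes below was not tested.

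**Figure D3:**
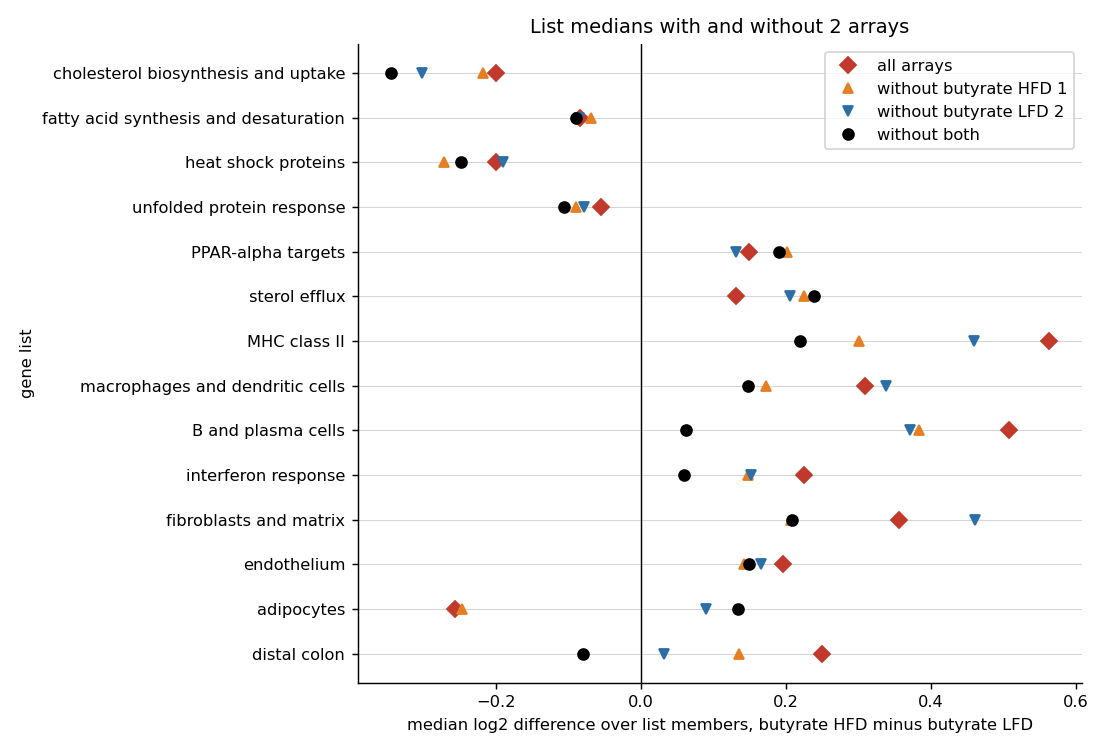
Median log2 difference (butyrate HFD minus butyrate LFD) over the members of 14 gene lists with all 8 arrays, without array 1 of butyrate HFD, without array 2 of butyrate LFD and without both. MHC class II stands at 0.56 with all arrays and 0.22 without both, cholesterol synthesis at -0.20 and -0.34, and the distal colon genes at 0.25 and -0.08.

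Interferon-response genes leaned higher: 26 of 27 had a difference above 0, with a median of 0.22 and 2 at an unadjusted p under 0.05. Ifi27, an interferon-induced mitochondrial protein, had 7.98, 7.79, 7.71 and 7.92 in butyrate HFD and 7.76, 7.29, 7.47 and 7.61 in butyrate LFD. Array 1 of butyrate LFD overlapped butyrate HFD, and the difference was 0.32 ± 0.11. The list's median was 0.06 without array 1 of butyrate HFD and array 2 of butyrate LFD, with 20 of 27 above 0, and Ifi27 then differed by 0.20. Of 17 genes of acute inflammation 16 had a difference above 0, with a median of 0.10. Ccl20, the chemokine that draws CCR6-bearing lymphocytes and dendritic cells, differed by 0.51 ± 0.25, and by 0.23 without those arrays. The MHC class I and immunoproteasome list had a median of 0.06, with 1 of 15, the immunoproteasome subunit Psmb8, at an unadjusted p under 0.05 (0.32 ± 0.15).

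The 15 genes with the smallest p-values among those higher in butyrate HFD are given next. Entpd1, which encodes CD39, the ectonucleotidase that degrades extracellular ATP on endothelial and immune cells (probe set 10463070), had 4.72, 4.47, 4.40 and 4.27 in butyrate HFD and 3.94, 3.92, 3.99 and 4.04 in butyrate LFD. No arrays overlapped and the difference was 0.49 ± 0.12, but all butyrate LFD values lay under the filter's level. Pdpn, podoplanin of lymphatic endothelium and fibroblastic cells (probe set 10518147), had 5.35, 5.16, 5.32 and 5.05 in butyrate HFD and 5.02, 4.75, 4.66 and 4.64 in butyrate LFD. These groups were also apart, narrowly, with a difference of 0.45 ± 0.11. Over all alternatives run, including each array left out, the difference ranged from 0.40 to 0.53 for Pdpn and from 0.39 to 0.56 for Entpd1, and the smallest adjusted p of either was 0.7095. Gpr55, a receptor for lysophospholipids, differed by 0.41 ± 0.10, Hcls1, an actin regulator of blood cells, by 0.46 ± 0.12, Antxr1, an anthrax toxin receptor of stromal cells, by 0.52 ± 0.14, and H2-M3, an MHC class Ib molecule that presents formylated peptides, by 0.28 ± 0.08. Basp1, Btbd7, Cpxm2, Eid2b, Cmtm3, Zcchc24, the platelet-derived growth factor receptor Pdgfrb and the transcriptional repressor Bcl6 stood between 0.28 and 0.51, Apoe (0.58) is described above, and 13 of the 15 had groups that did not overlap. Since these genes were picked by their p-values, that count describes the choice.

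The genes lower in butyrate HFD included several of the secretory lining. Agr2, the disulfide isomerase that goblet cells need to make mucin (probe set 10395365), had 12.04, 12.04, 11.97 and 11.92 in butyrate HFD and 12.28, 12.11, 12.38 and 12.08 in butyrate LFD. The groups did not overlap but nearly met, and the difference was -0.22 ± 0.07. Zg16, a lectin of the mucus layer, had 12.48, 12.36, 12.37 and 12.43 in butyrate HFD and 12.60, 12.45, 12.65 and 12.46 in butyrate LFD, with overlap and a difference of -0.13 ± 0.06. The goblet list had 8 of 17 members above 0 and a median of -0.01. Without array 1 of butyrate HFD and array 2 of butyrate LFD 15 of 17 were below 0, with a median of -0.07 and 3 at an unadjusted p under 0.05. After a second quantile normalization of all arrays 9 of 17 were above 0, with a median of 0.01. Muc2, the main mucin, differed by -0.08 ± 0.04. Lgals4, a galectin of the colonic epithelium, differed by -0.12 ± 0.04. Vcpkmt, a lysine methyltransferase, had the smallest p of the genes that were lower, with 5.65, 5.74, 5.87 and 5.81 in butyrate HFD and 6.12, 5.93, 6.18 and 6.09 in butyrate LFD. Its groups were apart and the difference was -0.31 ± 0.08. Detoxifying enzymes were among these genes as well, namely the aldo-keto reductases Akr1b8 (-0.40 ± 0.14) and Akr1c12 (-0.25 ± 0.09) and the glutathione transferase Gstm1 (-0.24 ± 0.09), while the whole xenobiotic list had a median of -0.02 with 20 of 29 members below 0. That lean turned without array 1 of butyrate HFD (16 of 29 above 0), without array 2 of butyrate LFD (17 of 29) and without both (19 of 29, median 0.07). Without both, Akr1b8 differed by -0.26. Gpsm2, Mrpl54, Arl1, Csf3, Nat8f1, Epha2, Ppp1r3g and Fam174c stood between -0.24 and -0.57, and Scd1 is the remaining one. Of the oxidative phosphorylation list 22 of 34 members were below 0, with a median of -0.03 and 2 at an unadjusted p under 0.05, the subunits Ndufb8 (-0.17 ± 0.07) and Cox6a1 (-0.17 ± 0.08).

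Antimicrobial and defence proteins varied widely within each diet. Retnlb, the goblet cell protein RELMβ (probe set 10436087), had 7.93, 8.62, 8.55 and 7.68 in butyrate HFD and 8.90, 8.76, 9.07 and 10.55 in butyrate LFD. The groups did not overlap, and the difference was -1.13 ± 0.56, a linear change of -54.2%. For Retnlb it was -0.71 without array 4 of butyrate LFD and -1.31 without array 2 of butyrate LFD. Reg3g, a bactericidal lectin, had 9.80, 9.80, 7.76 and 10.21 in butyrate HFD and 9.08, 11.29, 8.29 and 8.16 in butyrate LFD. The spread within a diet was larger than the difference of 0.19 ± 0.66, whose 95% interval ran from -1.16 to 1.54. Reg3b, its close relative, differed by -0.27 ± 0.60, and by 0.34 without array 3 of butyrate HFD. The antimicrobial list of 19 genes had a median of -0.02.

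Of 14 genes of the distal colon 12 were above 0, with a median of 0.25 and 2 at an unadjusted p under 0.05, the sodium channel genes Scnn1g and Scnn1b, which are members of this list. Scnn1g, the gamma subunit of the epithelial sodium channel, had 8.31, 8.34, 7.40 and 7.21 in butyrate HFD and 7.69, 5.94, 6.52 and 7.83 in butyrate LFD, a difference of 0.82 ± 0.40 with overlapping groups. Scnn1b, the beta subunit, differed by 0.52 ± 0.23. The lowest of the 8 for both was array 2 of butyrate LFD. Without it and array 1 of butyrate HFD, Scnn1g differed by 0.31 and Scnn1b by 0.31. Without array 2 of butyrate LFD alone the list's median was 0.03. Without that array and array 1 of butyrate HFD it was -0.08, with 5 of 14 above 0. Genes of the proximal colon had a median of 0.04 over all 8 arrays and of -0.06 without array 2 of butyrate LFD. Pyy, the enteroendocrine peptide YY, had 10.12, 9.82, 10.03 and 9.87 in butyrate HFD and 9.91, 9.40, 9.84 and 9.75 in butyrate LFD, with overlap and a difference of 0.23 ± 0.10, or 0.07 without array 1 of butyrate HFD and array 2 of butyrate LFD.

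The genes through which butyrate itself is taken up and sensed did not lean with diet. Slc16a1, the monocarboxylate transporter MCT1 (probe set 10495035), had 10.26, 10.16, 10.38 and 10.40 in butyrate HFD and 10.26, 10.09, 10.03 and 10.32 in butyrate LFD. The ranges overlapped, and the difference was 0.13 ± 0.12. Slc5a8, the sodium-coupled transporter SMCT1, differed by 0.00 ± 0.08. Ffar2, the receptor for short-chain fatty acids, differed by 0.07 ± 0.15. The 12 tested transporters and receptors had a median of 0.00, the 12 enzymes of short-chain acid activation and breakdown 0.01, and the 17 histone deacetylases and acetyltransferases 0.03, all with 0 members at an unadjusted p under 0.05. Cdkn1a, the cell cycle inhibitor that deacetylase inhibitors raise in cultured cells, averaged 11.03 ± 0.07 in butyrate HFD and 11.01 ± 0.06 in butyrate LFD (SD, n = 4 each). Of 27 cell cycle genes 20 had a difference below 0, with a median of -0.03 and 0 at an unadjusted p under 0.05. That median was 0.02 without array 3 of butyrate LFD and -0.14 without array 2 of butyrate HFD. Surface colonocyte genes had a median of -0.03.

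The remaining comparison asks whether the diet acted on the colon under butyrate as it did under the other infusions. Over saline, acetate and propionate together limma called 583 genes, 256 higher (2%) and 327 lower (2.56%) on HFD. That comparison rests on 23 arrays and a median standard error of 0.06, against 8 arrays and 0.10 under butyrate. Some of the 23 arrays carried transcripts of the small intestine. The mean of its fat and sugar absorption genes was 8.09 on array 2 of saline HFD and 8.48 on array 2 of propionate LFD. On arrays 2 and 3 of saline LFD it was 8.32 and 8.09, and on every other array of the study 7.06 or less. The part of such RNA in the diet differences was not tested. Under propionate alone, with the same numbers of arrays as under butyrate, 879 genes were called (6.87%), 262 higher and 617 lower, or 798 genes with 361 of them higher after a second quantile normalization. The propionate count was 11 without array 2 of propionate HFD and 1731 without array 1. Under saline alone and under acetate alone 0 genes were called, as under butyrate, with 932 and 986 genes at an unadjusted p under 0.05.

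Of the 583 genes, 434 (74.4%) had a difference of the same sign under butyrate, where the same held for 59.6% of all genes tested. They numbered 208 of the 256 higher and 226 of the 327 lower genes. Their differences under butyrate were small. The median of the 256 was 0.08 under butyrate and 0.26 over the other infusions, and that of the 327 was -0.04 and -0.26. Selecting the genes on the other infusions enlarges their values there, so the medians are not of equal standing. An unadjusted p under 0.05 under butyrate was reached by 19 with the same sign, among them Scd1, Me1, Tm7sf2 and Cd83, and by 2 with the opposite sign. Across all 12795 genes the diet difference under butyrate correlated with that under saline at r = 0.43, with that under acetate at 0.33 and with that under propionate at 0.09, while saline and acetate correlated at 0.62. No arrays are shared between these comparisons, but all use a single normalization, and genes are not independent replicates.

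**Figure D4:**
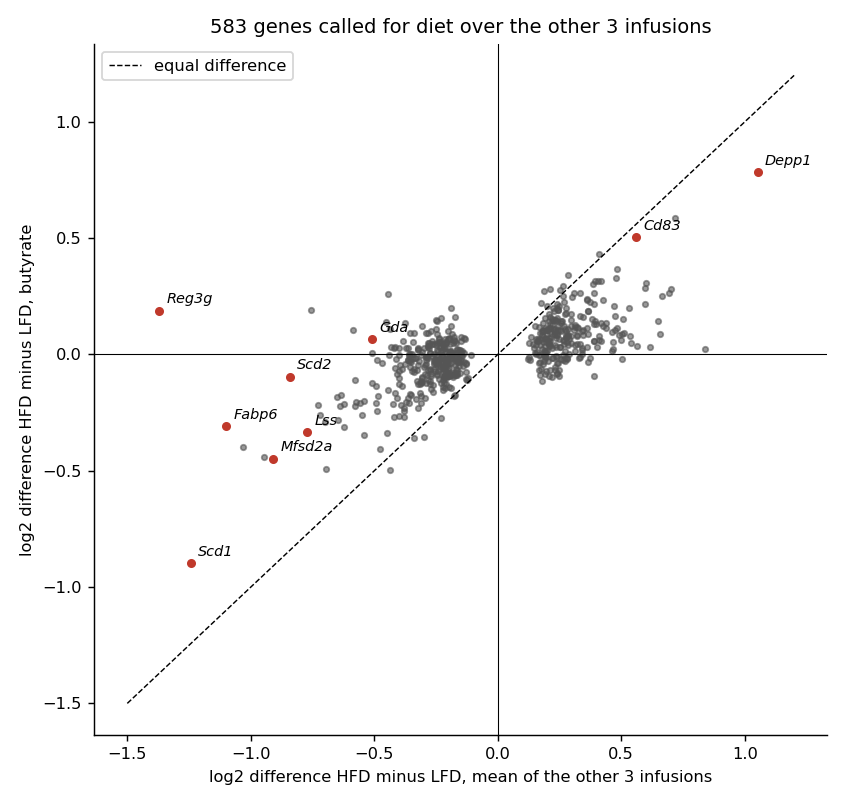
Log2 difference HFD minus LFD of the 583 genes called for diet over the other 3 infusions, under butyrate (vertical axis) and as the mean of the other 3 (horizontal axis), with a dashed line where both are equal. Most genes lie nearer to 0 under butyrate, Cd83 and Scd1 keep differences of 0.51 and -0.90, and Reg3g stands at 0.19 under butyrate against -1.37.

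Lipid genes illustrate the comparison. Scd1 differed by -0.90 ± 0.30 under butyrate, -0.81 under acetate, -1.74 under propionate and -1.18 under saline. Its group means on HFD were 8.31 under butyrate, 8.22 under acetate, 7.93 under propionate and 8.22 under saline, against 9.21, 9.03, 9.67 and 9.40 on LFD in that order. Scd2 differed by -0.09 ± 0.27 under butyrate and by -0.84 over the other 3 infusions. The difference of these differences was 0.75 ± 0.31, with an adjusted p of 0.972 in limma. The sterol list had a median of -0.20 under butyrate, -0.35 under acetate, -0.85 under propionate and -0.17 under saline, and heat shock genes -0.20, -0.36, -0.34 and -0.38 in that order. MHC class II genes had 0.56 under butyrate, 0.19 under acetate, 0.06 under propionate and 0.13 under saline, and macrophage markers 0.31, 0.13, 0.05 and 0.06. Without array 1 of butyrate HFD and array 2 of butyrate LFD the butyrate medians were 0.22 for MHC class II and 0.15 for macrophage markers. That of the sterol list was then -0.34, and -0.04 without array 1 of butyrate LFD. Medians of the other infusions were not computed with arrays left out.

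**Figure D5:**
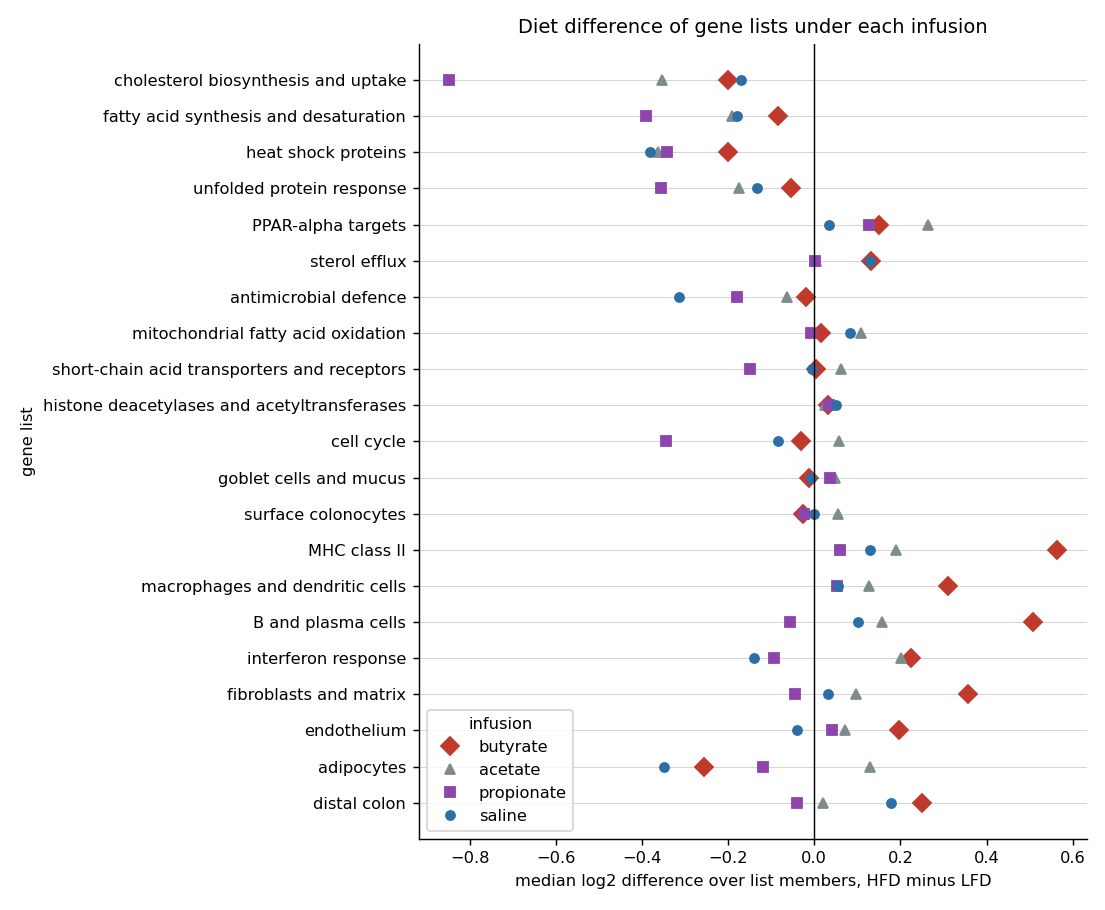
Median log2 difference, HFD minus LFD, over the members of 21 gene lists under butyrate (red diamonds), acetate, propionate and saline. The sterol list stands at -0.20 under butyrate and -0.85 under propionate, and MHC class II at 0.56 under butyrate and between 0.06 and 0.19 under the others. Without array 1 of butyrate HFD and array 2 of butyrate LFD, not drawn here, these butyrate medians were -0.34 and 0.22.

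No gene passed the test of whether its diet difference under butyrate differed from that under other infusions. Against saline 0 of 12795 genes passed (0%, smallest adjusted p = 0.9995 in limma, 291 at an unadjusted p under 0.05). Against the mean of the other 3 infusions 0 passed (0%, smallest adjusted p = 0.972, 567 at an unadjusted p under 0.05). Against propionate, a comparison added after its own count was seen, 0 passed (0%, smallest adjusted p = 0.2144, 1764 at an unadjusted p under 0.05). With only the butyrate and propionate arrays in the fit 11 genes passed, and with array weights 83.

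The genes nearest to a difference were led by Pdpn. It was higher by 0.45 under butyrate but lower by 0.14 over the other 3, a difference of 0.59 ± 0.13. Gda, the guanine deaminase of purine breakdown, had 8.69, 8.63, 8.08 and 8.46 in butyrate HFD and 8.46, 8.64, 8.20 and 8.30 in butyrate LFD. It differed by 0.07 ± 0.13 under butyrate and was called lower over the other 3 (-0.51, adjusted p = 0.001782 in limma), with 0.58 ± 0.15 between them. Sec24c, a coat protein of secretory vesicles, was at 0.16 under butyrate and called at -0.17 over the other 3 (adjusted p = 0.01842). H2-M3 was at 0.28 and -0.07. Reg3g, called over the other 3 at -1.37 (adjusted p = 0.04206), was at 0.19 under butyrate, with 1.56 ± 0.77 between them (adjusted p = 0.972 in limma). The values over the other 3 include the arrays with transcripts of the small intestine, whose part in them was not tested. Tsen15, among these genes too, differed by 0.38 under butyrate on its brighter probe set and by 0.16 on the other.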

How the data were processed

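Colonic scrapings were measured on 31 arrays. The deposited values are log2 intensities per probe set, normalized by the authors with RMA, per the submitters' processing notes, which give no version. They were taken from the deposited table as they stand. Of 35556 probe sets 21218 carried 1 gene symbol in the platform annotation, 1881 several and 12457 none or no entry. Each of 18820 genes was represented by its brightest probe set on average, and 12795 genes with an intensity of 20 (log2 4.32) on at least 3 arrays were tested. Group means of 8 groups were fitted with limma 3.58.1 in R 4.3.3 (eBayes with intensity trend, two-sided, Benjamini-Hochberg over all tested genes, threshold 0.05), and checked on simulated data. Groups came from sample titles. Genes named are the 15 with the smallest p in each direction, the 10 with the smallest p per difference between infusions, up to 4 members per list at an unadjusted p under 0.05, and a panel of 35 genes (31 tested), leaving out gene models without a descriptive name. Members, the panel and the 47 lists were chosen with earlier results of these data known. Alternatives were other filters, moderation, array weights, probe sets, a second quantile normalization, a replicate block, only the groups compared, and each array left out. The comparisons with propionate, and leaving out 2 arrays together, were added after the data were seen.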

Additional observations from a re-analysis of the deposited data

Results flagged for a closer look

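In 9 of 304 groups of 4 arrays checked (2.96%) 1 array lay far from the other 3, where chance flags about 1 in 20. All 9 concern butyrate HFD, and all values are log2 levels. Array 1 was the highest for Abcg1 (7.14) and for the mean of the interferon list (6.98), and the lowest for Pdk4 (6.69) and for the mean of the proximal colon list (8.73). Array 3 was the lowest for Reg3g (7.76) and Reg3b (8.68) and the highest for Lgals4 (12.61). Array 2 was the highest for Stard4 (8.69), and array 4 was the highest for the mean of the adipocyte list (6.48).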

How the results depend on the processing

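The count of 0 genes for diet under butyrate held under every alternative run, with 347 to 689 genes at an unadjusted p under 0.05 when 1 array was left out (0 called at the lowest and 0 at the highest). Deviations of same-numbered butyrate arrays from their group means correlated at 0.30, 0.02, -0.13 and 0.21. Array 1 of butyrate HFD correlated best with array 1 of butyrate LFD, but arrays 2, 3 and 4 with arrays of other numbers. The macrophage mean was also the highest of its group on array 1 of saline HFD (5.58), acetate HFD (5.67) and propionate HFD (5.82). For MHC class II this held under saline (6.63) and propionate (6.70) but not under acetate. Whether arrays of 1 number share a batch was not tested. With the replicate number as a block 0 genes were called, with 544 at an unadjusted p under 0.05. The differences from saline and from the other 3 infusions gave 0 under every alternative run, and for the other 3 infusions a fit of only the groups compared was not run. The count of 583 for diet over the other infusions was 378 without the filter on dim genes and 1928 with array weights, and ranged from 164 (without array 3 of acetate LFD) to 1243 (without array 3 of saline LFD). The propionate count of 879 was 2652 with array weights and ranged from 11 to 1731 when 1 array was left out. The difference from propionate, 0 in the main fit and with any 1 array left out, was 83 with array weights and 11 with only the groups compared.

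Signs turned for 13 named genes, among them Fabp6 (-0.31) and Reg3b (-0.27) with standard errors larger than their differences. Srebf1 was -0.031 with array weights, -0.02 after a second quantile normalization and -0.071 without array 1 of butyrate HFD and array 2 of butyrate LFD. Abcg2 was 0.0091 with array weights and 0.0671 without those arrays, where Fads2 was -0.1456, Slc5a8 -0.0179, Cdkn1a -0.0243 and Reg3b 0.0695. With 1 array left out the log2 differences ran for Srebf1 from -0.0757 to 0.1217, Abcg2 from -0.073 to 0.0976, Gda from -0.0088 to 0.1959, Cdkn1a from -0.0121 to 0.0435, Scd2 from -0.27 to 0.1296, Cpt1a from -0.042 to 0.0998, Ffar2 from -0.0245 to 0.1433. They ran for Reg3b from -0.6097 to 0.3405, Reg3g from -0.1596 to 0.8833, Slc5a8 from -0.0445 to 0.0582, Acaca from -0.115 to 0.0002, Fads2 from -0.0789 to 0.3202, Fabp6 from -0.5724 to 0.1129. The cause was not tested. With 4 arrays a group and a median standard error of 0.10, small differences could not be shown, and genes near the filter's level carry little signal over background.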

Other observations

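The values below are log2 differences of butyrate HFD minus butyrate LFD. Genes that absorb fat and sugar in the small intestine had a median of -0.11, with 15 of 21 below 0 and 0 at an unadjusted p under 0.05, and of -0.01 without array 1 of butyrate HFD and array 2 of butyrate LFD. Apoa1, an apolipoprotein of that list named after its value was seen, differed by -0.69 ± 1.05. Peroxisomal fatty acid oxidation had a median of 0.05, with 11 of 13 members above 0. That median was -0.05 without array 1 of butyrate LFD, and 0.19 with 13 of 13 above 0 without array 1 of butyrate HFD and array 2 of butyrate LFD. Immediate early genes had 0.05, with 18 of 23 above 0, and 0.02 without array 1 of butyrate HFD. Klf2, a transcription factor of endothelium and lymphocytes, had 5.42, 5.40, 5.45 and 5.46 in butyrate HFD and 5.19, 5.22, 5.02 and 5.24 in butyrate LFD. Its groups did not overlap, and the difference was 0.26 ± 0.09 (adjusted p = 0.9996 in limma). Stem and progenitor genes had a median of 0.06 (-0.03 without array 1 of butyrate LFD) and enteroendocrine genes of 0.06 (0.01 without it), glycolysis 0.02, the tricarboxylic acid cycle 0.01 and phospholipid remodelling -0.03.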
